A study of Mus musculus with 20 samples.

Results

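The genes described here encode what group 2 innate lymphoid cells (ILC2) of the thymus secrete, together with 1 enzyme that processes secreted proteins. They are the type 2 cytokine genes Il4, Il5 and Il13, the growth factor genes Csf2 and Areg, the chemokine gene Ccl1, the neuropeptide precursor genes Calca and Penk, and the convertase gene Furin. They were chosen by gene symbol, and all 9 have a row in both count tables, which hold 9973 genes for a treatment experiment and 10706 genes for an Il25 knockout experiment.

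The treatment experiment used ILC2 sorted from thymi of young female wild-type animals, with 3 libraries in each of 4 groups. The groups were untreated mice, mice exposed to sublethal irradiation (425 rad), mice given 0.3 µg recombinant IL-25 (rIL-25) by intrathymic injection, and mice given both. Treated mice were killed after 3 days. In the knockout experiment, all mice were male and had received 425 rad 3 days earlier, and 4 libraries of Il25 wild-type mice (Il25 WT) were compared with 4 libraries of Il25 knockout mice (Il25 KO). The labels used here give no strain, no knockout allele and no sorting gate, and they do not say whether each library came from a separate animal, so p-values measure only the spread between these samples. Injection and rIL-25 cannot be told apart, because every injected mouse received rIL-25. The knockout experiment had no unirradiated group, and its table was scaled separately, so levels are compared within an experiment only. Libraries were made with MARS-seq, which tags and counts the 3′ ends of polyadenylated transcripts.

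ILC2 sit in tissues and respond to alarm signals from neighbouring cells, among them IL-25, which tuft cells release and which is detected by a receptor containing Il17rb. Once activated they secrete IL-5, which sustains eosinophils, and IL-13, which acts on epithelial cells, fibroblasts and macrophages. Transcripts of such cytokines are often kept rare by weak transcription at rest and by rapid decay through AU-rich stretches in the 3′ untranslated region, and both can change on activation.

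The sorted cells carried the ILC2 transcripts Gata3 and Il17rb in every group. Gata3, the regulator ILC2 depend on, was at 211 ± 23.5 CPM (counts scaled to a library size of 1000000 after TMM normalization, mean ± SD, n = 3) in untreated mice, and between 187 ± 20.2 and 249 ± 52.6 CPM in the treated groups. Il17rb was between 199 ± 42.2 and 218 ± 32.7 CPM in all 4 groups. Gata3 and Il17rb were not called in any comparison. The ILC2 markers Il1rl1, Klrg1 and Arg1 were nearly absent from untreated mice, with 3, 3 and 2 counts over all untreated libraries. Early progenitor transcripts were abundant there, with Dntt, the polymerase of antigen receptor rearrangement, at 2153 ± 189 CPM. Libraries of the treatment experiment held 495079 to 1460702 counts, so that 3 counts stood for 2.05 to 6.06 CPM before scaling. Those of the knockout experiment held 2093288 to 4420831 counts, and 3 counts stood for 0.679 to 1.43 CPM.

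Il4, Il13, Il5 and Csf2 lie on chromosome 11 within 647 kb, and the other members lie outside that stretch. In mm10 with GENCODE M21, Il4 spans 53602982 to 53618669 (minus strand), Il13 spans 53631324 to 53634702 (minus strand), Il5 spans 53720794 to 53725106 (plus strand) and Csf2 spans 54247271 to 54249667 (minus strand). Ccl1 is on the same chromosome at 82176657 to 82305690 (minus strand), a long gene model within which RefSeq places the start used below. In RefSeq the noncoding gene Gm12223, which was not analysed here, overlaps Csf2, and its reads could be counted for Csf2. Areg is on chromosome 5 at 91139599 to 91148432 (plus strand), Penk on chromosome 4 at 4133531 to 4138819 (minus strand), Calca on chromosome 7 at 114631478 to 114636357 (minus strand) and Furin on chromosome 7 at 80388585 to 80405436 (minus strand). RefSeq promoter sequence of the build GRCm38.p6 was matched for 8 of the 9 members, not for Penk. The 250 bases upstream of the annotated start are shown for Il13, Il5, Areg and Ccl1, as examples of a type 2 cytokine pair, a growth factor and a chemokine. Sequences are read 5′ to 3′ on the strand of the gene. Capitals mark GATAA, the core that GATA factors recognise, on either strand, TATAAA on the strand shown, and TGACGTCA, the cyclic AMP response element.
Il13 promoter, chr11:53634703-53634952, minus strand: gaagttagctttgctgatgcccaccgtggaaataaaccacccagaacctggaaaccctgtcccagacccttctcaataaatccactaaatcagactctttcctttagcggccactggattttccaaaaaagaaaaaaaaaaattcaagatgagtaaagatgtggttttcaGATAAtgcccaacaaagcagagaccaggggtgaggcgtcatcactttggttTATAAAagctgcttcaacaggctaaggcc
Il5 promoter, chr11:53720544-53720793, plus strand: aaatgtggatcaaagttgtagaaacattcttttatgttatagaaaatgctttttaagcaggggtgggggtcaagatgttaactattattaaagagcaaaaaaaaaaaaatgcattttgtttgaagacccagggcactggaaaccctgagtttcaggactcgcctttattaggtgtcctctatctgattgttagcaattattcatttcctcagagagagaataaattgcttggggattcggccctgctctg
Areg promoter, chr5:91139349-91139598, plus strand: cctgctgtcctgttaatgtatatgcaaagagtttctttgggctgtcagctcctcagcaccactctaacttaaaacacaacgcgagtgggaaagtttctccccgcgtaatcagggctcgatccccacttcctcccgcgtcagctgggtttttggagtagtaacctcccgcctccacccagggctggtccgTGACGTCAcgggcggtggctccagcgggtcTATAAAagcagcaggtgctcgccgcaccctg
Ccl1 promoter, chr11:82179813-82180062, minus strand: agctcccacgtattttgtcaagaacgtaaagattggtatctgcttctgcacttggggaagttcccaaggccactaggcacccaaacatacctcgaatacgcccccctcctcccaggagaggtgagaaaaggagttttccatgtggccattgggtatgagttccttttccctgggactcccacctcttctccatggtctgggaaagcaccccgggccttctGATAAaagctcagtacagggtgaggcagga
GATAA was found in the promoters of Il13, at position -80 from the start, Ccl1, at -30, Csf2, at -246, and Calca, at -218. Of 32817 mouse promoter stretches of the same length, 22.6% held GATAA on either strand. Other forms of the GATA site were not searched, so a promoter without GATAA may still hold a GATA site. TATAAA was found for Il13, Areg and Furin, against 12.4% of all stretches when both strands are searched, and in Il13 a match on the other strand overlaps the one shown. TGACGTCA was found for Areg alone among the 8 members matched, against 1.55% of all stretches. GGAAA, the core that NFAT factors recognise, was found on either strand for all members matched but Furin, against 55.6% of all stretches. The AP-1 motif TGANTCA (6.75% of all stretches) and the STAT motif TTCNNNGAA (7.01%) were found for none of the 8.

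The 3′ untranslated regions differ in AU-rich motifs. In the transcript with the longest coding sequence, ATTTA occurred 9 times in Csf2, 7 times in Il5, 4 times in Areg, 3 times in Il13, and 2 times each in Il4 and Furin, with overlapping matches counted. It did not occur in Calca, Penk or Ccl1. The longer form ATTTATTTA, found in 5.52% of 21010 mouse genes, occurred in Csf2 and Areg only among the members. The 30 bases of each region with the most ATTTA are shown, with ATTTA in capitals. They hold 5 of the 9 matches in Csf2 and all 4 in Areg.
Csf2 site: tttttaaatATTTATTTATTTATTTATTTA
Areg site: ataATTTATTTAatATTTAagtgttATTTA

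The first question was how the secreted effectors of thymic ILC2 differed after irradiation, after rIL-25 and after both. Transcripts of all 9 members were highest, on average over 3 libraries, after both treatments, with the exception of Il4. Il13, Furin and Calca had enough counts to pass the filter on low counts, and these 3 were tested among 7482 genes with edgeR's quasi-likelihood test, with Benjamini-Hochberg adjustment and a call at an adjusted p under 0.05. The other 6 members (Il4, Il5, Csf2, Areg, Penk and Ccl1) did not pass. They are given as counts, with adjusted p-values from a fit without a filter over all 9973 genes that was added after the data were seen. Every gene of the deposited treatment table reached at least 6 counts in some library. Il4, Csf2, Areg and Penk did so only after both treatments. In these bulk libraries, fewer cells of a type and less RNA per cell cannot be told apart.

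**Figure D1:**
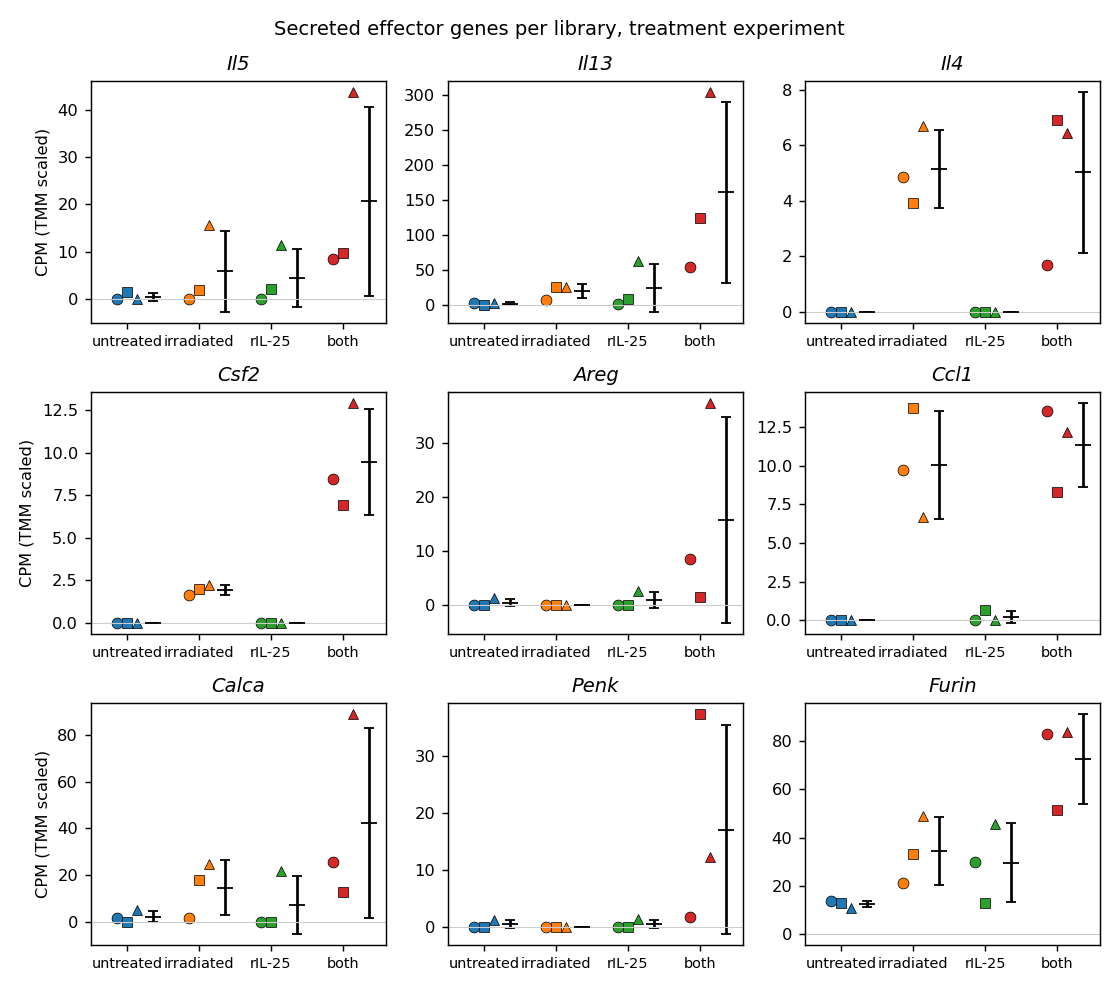
Level of each secreted effector gene in every library of the treatment experiment, in CPM after TMM scaling on linear axes with a scale of their own. Circles, squares and triangles are replicates 1, 2 and 3 of each group, and bars give the mean ± SD (n = 3). Il13, Calca and Il5 are highest in replicate 3 of the doubly treated mice, and for Ccl1 and Il4 the libraries after irradiation alone overlap with those after both treatments.

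Il13 encodes IL-13, which acts on epithelial cells and macrophages. The 3 untreated libraries held 2, 0 and 3 Il13 counts, the irradiated libraries 5, 13 and 12, the rIL-25 libraries 1, 14 and 50, and the doubly treated libraries 32, 90 and 425. Every doubly treated library was thus above every untreated and irradiated one in CPM, while the rIL-25 group overlapped with both the untreated and the doubly treated group. Mean levels were 2.22 ± 1.95, 20.1 ± 10.4, 24.8 ± 33.8 and 161 ± 129 CPM in the same order (n = 3 each). Il13 rose after both treatments against untreated mice by 6.10 ± 0.92 on the log2 scale (SE; edgeR adjusted p = 0.000276). The call was made under all 18 alternatives, and the rise was 5.21 on the log2 scale (adjusted p = 0.00212) without doubly treated replicate 3, which held 77.7% of the group's Il13 counts.

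Il13 was also higher after both treatments than after either one. The difference from irradiation alone was 3.10 ± 0.69 on the log2 scale (edgeR adjusted p = 0.0172). This call was lost without irradiated replicate 1 (2.67, adjusted p = 0.114), irradiated replicate 3 (3.38, adjusted p = 0.0536) or doubly treated replicate 3 (2.21, adjusted p = 0.194), and by DESeq2 (adjusted p = 0.162). The difference from rIL-25 alone was 2.83 ± 0.62 on the log2 scale (edgeR adjusted p = 0.00418), with overlapping groups. It was lost without doubly treated replicate 3 (1.93, adjusted p = 0.075) and by DESeq2 (adjusted p = 0.12), and without rIL-25 replicate 3 it was 4.65. Against untreated mice, neither irradiation (log2 fold change 3.00 ± 1.27, edgeR adjusted p = 0.196) nor rIL-25 (3.27 ± 1.15, edgeR adjusted p = 0.999) alone gave a call for Il13.

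Il5 followed a like order at lower counts. Untreated libraries held 0, 1 and 0 Il5 counts, irradiated libraries 0, 1 and 7, rIL-25 libraries 0, 3 and 9, and doubly treated libraries 5, 7 and 61. Each doubly treated library was above each untreated one, but the range overlapped with both single treatments. Per total count, Il5 was 59.2 times as high after both treatments as in untreated mice, with an exact 95% interval of 10.3 to 2370 that covers counting error only, and 20.1 times (2.97 to 858) without doubly treated replicate 3. Without untreated replicate 3 it was 36.9 times, and without replicate 2 the untreated group had 0 counts. In the fit without a filter Il5 was called in this comparison (edgeR adjusted p = 0.00834), but not without doubly treated replicate 3 (adjusted p = 0.17) or untreated replicate 3 (adjusted p = 0.0551), nor by DESeq2 (adjusted p = 0.0826). Against rIL-25 alone the ratio was 6.74 (3.63 to 13.6), called at an adjusted p of 0.048 in edgeR without a filter, a call lost by DESeq2 (0.434) and without doubly treated replicate 3 (0.608), any 1 untreated library (up to 0.0585), or rIL-25 replicate 1 (0.166) or 2 (0.172). Without doubly treated replicate 3 that ratio was 2.28 (0.938 to 5.56), and without rIL-25 replicate 3 it was 19.9 (6.54 to 98.6). Against irradiation alone it was 5.31 (2.56 to 12.8) and was not called (adjusted p = 0.246).

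Il4, which encodes IL-4, the cytokine that drives type 2 T helper cells and IgE, was seen only in irradiated groups. It had 0 counts in all untreated and all rIL-25 libraries, 3, 2 and 3 counts in irradiated libraries and 1, 5 and 9 in doubly treated libraries. All 6 irradiated libraries, with or without rIL-25, therefore held Il4 counts and the 6 others held none. A count of 0 allows up to 3 counts over the untreated group, and against that floor Il4 was at least 3.72-fold higher after irradiation and at least 4.05-fold higher after both treatments. Here and for the other members, such a fold allows for the group at 0 only. It leaves out counting error and spread in the other group. Without untreated replicate 3 the values for Il4 were 2.32 and 2.53. The first difference was not called (edgeR without a filter, adjusted p = 0.0999). The second was called at an adjusted p of 0.0481, which went above 0.05 when any 1 of 9 libraries was left out (up to 0.17, without doubly treated replicate 3) and by DESeq2 (adjusted p = 0.0965). Mean Il4 levels after irradiation and after both treatments were 5.16 ± 1.41 and 5.02 ± 2.9 CPM (edgeR without a filter, adjusted p = 0.987). Against rIL-25 alone Il4 was at least 5.54-fold higher after both treatments (adjusted p = 0.0211), a call lost without doubly treated replicate 3 (0.096) or rIL-25 replicate 1 (0.0583) or 2 (0.074).

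Csf2 encodes GM-CSF, a growth factor for myeloid cells. Untreated and rIL-25 libraries had 0 Csf2 counts, irradiated libraries had 1 each, and doubly treated libraries had 5, 5 and 18. The doubly treated and irradiated ranges did not overlap, and the difference between these groups was not called (count ratio 5.43, exact 95% interval 1.68 to 27.9; edgeR without a filter, adjusted p = 0.24). Csf2 was at least 7.57-fold higher after both treatments than in untreated mice (edgeR without a filter, adjusted p = 0.0089). Without doubly treated replicate 3 the adjusted p was 0.0704. Against rIL-25 alone it was at least 10.3-fold higher (adjusted p = 0.00344). In the authors' deposited table the adjusted p for Csf2 after both treatments was 0.0217 against untreated mice and 0.417 against rIL-25.

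Areg encodes amphiregulin, a ligand of the epidermal growth factor receptor with a part in tissue repair. It had 0, 0 and 1 counts in untreated, 0 in every irradiated, 0, 0 and 2 in rIL-25 and 5, 1 and 52 in doubly treated libraries. The doubly treated group was above the untreated and irradiated groups in CPM, but 89.7% of its Areg counts came from replicate 3. Areg was at least 11.2-fold higher after both treatments than after irradiation (edgeR without a filter, adjusted p = 0.0385), a call lost without untreated replicate 1 or 3, doubly treated replicate 3 or any 1 irradiated library (adjusted p up to 0.407). Without doubly treated replicate 3 it was at least 2.4-fold higher. Against untreated mice the count ratio was 47 (exact 95% interval 8.11 to 1889; edgeR without a filter, adjusted p = 0.0152). Without doubly treated replicate 3 that comparison gave a ratio of 10.03 (1.22 to 461) and an adjusted p of 0.369, without untreated replicate 1 or 2 it gave 0.0605 and 0.0746, and by DESeq2 it gave 0.277. Against rIL-25 alone the ratio was 32.1 (8.5 to 271; adjusted p = 0.00913), with overlapping ranges, and the call was lost without rIL-25 replicate 2 (0.0517) or doubly treated replicate 3 (0.346, with a ratio of 6.85) and by DESeq2 (0.278).

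Ccl1, a chemokine whose receptor is Ccr8, was spread differently from Il13 and Areg. It had 0 counts in all untreated libraries, 6, 7 and 3 in irradiated, 0, 1 and 0 in rIL-25, and 8, 6 and 17 in doubly treated libraries. The irradiated and doubly treated ranges lay apart from the untreated and rIL-25 ranges and overlapped with each other. Ccl1 was at least 7.43-fold higher after irradiation and at least 8.38-fold higher after both treatments than in untreated mice (edgeR without a filter, adjusted p = 0.00929 and 0.00261). It was the only member called after irradiation alone in that fit, and the call was lost without untreated replicate 3 (adjusted p = 0.0554). Between both treatments and irradiation the count ratio was 1.13 (exact 95% interval 0.598 to 2.21, adjusted p = 0.931). Against rIL-25 alone it was 34.3 (5.72 to 1399), called at an adjusted p of 0.0021 in edgeR without a filter and in every fit that left out 1 library. In the authors' deposited table the adjusted p for Ccl1 was 0.0121 after irradiation and 0.00432 after both treatments, against untreated mice, and 0.419 for both treatments against rIL-25.

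Calca encodes the precursor of calcitonin and of the neuropeptide CGRP, which arise from 1 gene by alternative splicing and are not separated in counts per gene. Reads that Calca shares with its relative Calcb, which was not analysed here, could be counted under either. Untreated libraries held 1, 0 and 4 Calca counts, irradiated libraries 1, 9 and 11, rIL-25 libraries 0, 0 and 17, and doubly treated libraries 15, 9 and 124. Levels were 2.12 ± 2.48, 14.6 ± 11.7, 7.2 ± 12.5 and 42.2 ± 40.9 CPM, and the doubly treated range lay apart from the untreated range only. Calca rose after both treatments against untreated mice by 4.23 ± 1.07 on the log2 scale (edgeR adjusted p = 0.0151) and against rIL-25 alone by 2.84 ± 0.87 (edgeR adjusted p = 0.0309). Without doubly treated replicate 3 these were 2.96 (adjusted p = 0.201) and 1.53 (adjusted p = 0.399), and by DESeq2 the adjusted p-values were 0.182 and 0.406. Against irradiation alone Calca was not called (1.71 ± 0.85, adjusted p = 0.309). The call against untreated mice was also lost without untreated replicate 1 or 2 (adjusted p = 0.0547 and 0.0714; without replicate 3 it was 5.67), and that against rIL-25 without rIL-25 replicate 1 or 2 (adjusted p = 0.12 and 0.114), while without replicate 3 the rIL-25 group had 0 Calca counts.

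Penk encodes proenkephalin, the precursor of the enkephalin opioid peptides. It had 1 count over the untreated libraries, 0 in irradiated libraries, 1 over the rIL-25 libraries, and 1, 27 and 17 in the doubly treated libraries. The high libraries for Penk were doubly treated replicates 2 and 3, whereas Il13, Il5, Areg and Calca were highest in replicate 3 and Furin was lowest in replicate 2. The count ratio to untreated mice was 36.5 (exact 95% interval 6.22 to 1473; edgeR without a filter, adjusted p = 0.012). That call was lost without doubly treated replicate 2 (ratio 19.9, 3.14 to 829, adjusted p = 0.0904), without untreated replicate 1 or 2 (adjusted p = 0.0505 and 0.0646) and by DESeq2 (adjusted p = 0.174). Penk was at least 8.73-fold higher after both treatments than after irradiation (adjusted p = 0.0291), a call lost without any 1 irradiated library or doubly treated replicate 2 or 3 (adjusted p up to 0.126). Against rIL-25 alone the ratio was 49.8 (8.5 to 2011; adjusted p = 0.00468), and DESeq2 gave an adjusted p of 0.0911.

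Furin, a protease that cleaves precursor proteins in the secretory pathway, was detected in every library. It had 9 counts in each untreated library, 13, 17 and 22 in irradiated, 22, 19 and 36 in rIL-25, and 49, 37 and 117 in doubly treated libraries. The levels were 12.4 ± 1.41, 34.5 ± 14, 29.5 ± 16.5 and 72.6 ± 18.5 CPM, and each doubly treated library was above all libraries of the 3 other groups. Furin rose after both treatments by 2.55 ± 0.41 on the log2 scale (edgeR adjusted p = 0.000542), a call made under all 18 alternatives. Against rIL-25 alone it was higher by 1.38 ± 0.36 (edgeR adjusted p = 0.0123), which was lost without rIL-25 replicate 2 (0.96, adjusted p = 0.0639) or doubly treated replicate 3 (1.24, adjusted p = 0.0695). After irradiation alone it was 1.44 ± 0.47 on the log2 scale above untreated mice without a call (edgeR adjusted p = 0.0836), and without rIL-25 replicate 2 in the fit it was called (adjusted p = 0.0441). Against irradiation alone the doubly treated mice were 1.11 ± 0.38 higher on the log2 scale, without a call (edgeR adjusted p = 0.115).

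The numbers of members called are set beside those of all genes. After irradiation alone 0 of the 3 members tested were called, against 2.22% of all genes called higher. At an unadjusted p under 0.05 there were 2 of the 3, against 1415 of 7482 genes in either direction. DESeq2 called 1 member, Ccl1, and 292 genes in either direction. The irradiated and untreated ranges lay apart, with irradiated higher, for 5 of 9 members (Il4, Il13, Csf2, Ccl1 and Furin), against 10.6% of all genes in the table. In the fit without a filter 1 of 9 was called, Ccl1, against 1.61% of genes. After rIL-25 alone 0 of 3 members were called, and 0% of all genes. At an unadjusted p under 0.05 there were 2 members and 336 genes, DESeq2 also called 0 genes, and 0 of 9 members had ranges apart against 5.68% of all genes.

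After both treatments 3 of 3 members tested were called higher against untreated mice, against 4.22% of all genes tested, and 9 of 9 in the fit without a filter, against 3.63%. The ranges lay apart for 9 of 9, against 12.4% of genes. Against irradiation alone 1 of 3 members was called higher, against 0.642% of genes, and 3 of 9 without a filter (Il13, Areg and Penk), against 0.551%. Ranges lay apart for 5 of 9, against 8.69%. Against rIL-25 alone 3 of 3 were called higher, against 6.51% of genes, and 9 of 9 without a filter, against 5.54%. Ranges lay apart for 5 of 9 (Il4, Csf2, Penk, Ccl1 and Furin), against 13.8%. These comparisons share libraries. All genes in the table reached at least 6 counts in some library, which Il4, Csf2, Areg and Penk did only after both treatments. Their calls and separate ranges for that group were therefore partly fixed by which rows the table holds.

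The authors' deposited table gives values for each pair of groups. It called 4 members (Il13, Csf2, Ccl1 and Furin) higher after both treatments against untreated mice, against 3.07% of genes. It called 0 members against irradiation alone, against 0.461% of genes, and 0 against rIL-25 alone, against 0.241%. The unadjusted p in the authors' deposited table was under 0.05 for 4 members against irradiation and 6 against rIL-25. Against rIL-25 the adjusted p-values in the authors' deposited table are not the Benjamini-Hochberg values of its own p-values, which would call 858 genes where 51 are listed. Recomputed from the p-values in the authors' deposited table, they were 0.0079 for Csf2, 0.00812 for Ccl1, 0.0208 for Furin and 0.0447 for Il4, and 0.13 for Il13. For Penk, Areg, Calca and Il5 the recomputed values were 0.0987, 0.294, 0.426 and 0.453. The members were chosen with earlier results of these data known, so the shares describe them and are no test of the group.

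The interaction asks whether the log2 change after both treatments differed from the sum of the changes after each. It was not called for any of the 3 members tested (edgeR; 0 members at an unadjusted p under 0.05, and 0 called by DESeq2). Of 7482 genes tested, 155 were called in either direction, and those with a positive interaction were 0.361% of all genes. In the fit without a filter the interaction was called for 0 of 9 members. There 159 genes were called in either direction, and those with a positive interaction were 0.301% of genes. The estimate was -0.18 ± 1.14 on the log2 scale for Il13, 0.31 ± 2.10 for Calca and -0.06 ± 0.54 for Furin, with adjusted p-values of 0.961, 0.963 and 0.974. The SEs for Il13 and Calca exceed 1 on the log2 scale, so a departure of 1 on that scale would not have been detectable for them. For Furin the 95% interval was 0.405-fold to 2.27-fold, which also holds a departure of 1 on the log2 scale. The sign of all 3 estimates changed when some single libraries were left out. In the fit without a filter the SE was 142 for Il4 and 3741 for Csf2, which had 0 counts in whole groups. It was 3.69 for Areg, 3.52 for Penk, 1.57 for Il5 and 1.44 for Ccl1. The lack of a call therefore cannot decide the question for these members.

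**Figure D2:**
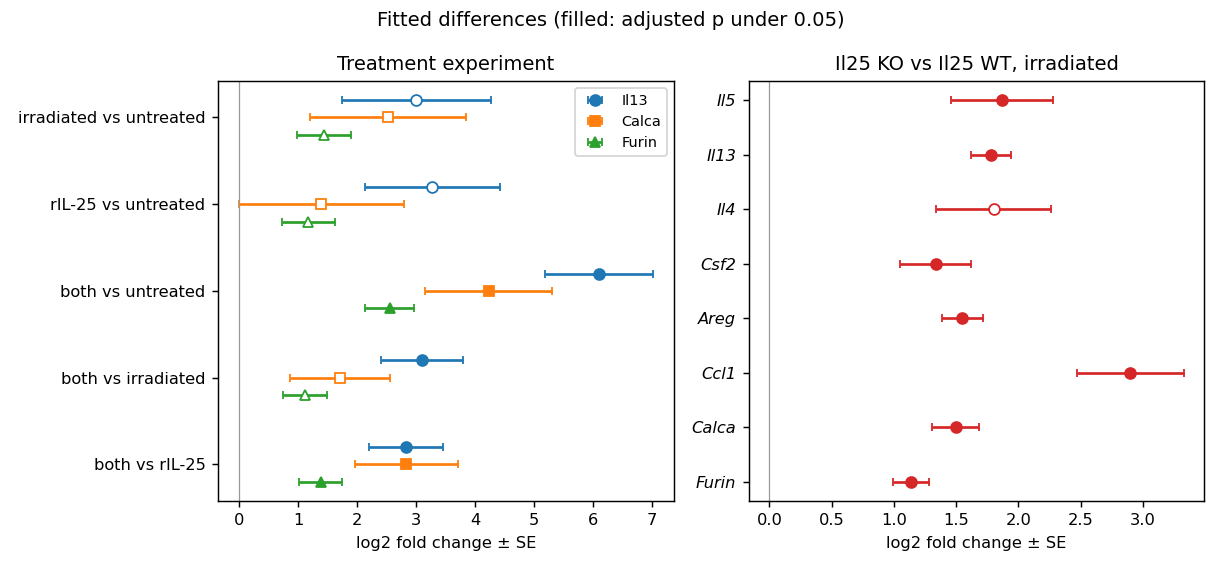
Fitted log2 fold changes ± SE from edgeR for the members that passed the filter, in the 5 group comparisons of the treatment experiment (left) and in the knockout experiment (right). Filled symbols have an adjusted p under 0.05. Il13, Calca and Furin are called after both treatments against untreated and against rIL-25, and 7 of 8 members are called in Il25 KO.

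Values of other cell types moved beside these counts. Myeloid and dendritic cell markers (10 measured of 12) summed to 373 to 1849 CPM in the rIL-25 libraries and to 316 to 470 CPM in all others, and rIL-25 replicate 3, with the highest sum, was also the rIL-25 library with the most Il13, Il5, Calca and Furin counts. Of the myeloid markers Csf1r was at 0 in untreated mice. Early progenitor markers (7 of 10) summed to 1990 to 2758 CPM after rIL-25 alone. They summed to 2922 to 3181 CPM in untreated mice, 1518 to 1773 after irradiation and 1635 to 2063 after both, with Hoxa9 at 0 in the last pair of groups. T cell and thymocyte markers (13 of 16) summed to 1656 to 2130, 2654 to 3022 and 2657 to 2773 CPM in the same order. Mast cell, basophil and eosinophil markers (4 of 15), cells that can also make IL-4 and IL-13, summed to 254 to 363, 37.9 to 76.2 and 16.5 to 69.3 CPM, with Hdc at 0 in untreated mice, and were lower in both irradiated groups. NK cell and ILC1 markers (2 of 10) summed to 306 to 412, 832 to 1165 and 512 to 924 CPM. ILC2 markers other than Areg (13 of 15) summed to 2335 to 2852, 3884 to 5341 and 3761 to 4506 CPM, with Nmur1 at 0 except after both treatments. The part of these cells in the results was not tested.

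**Figure D3:**
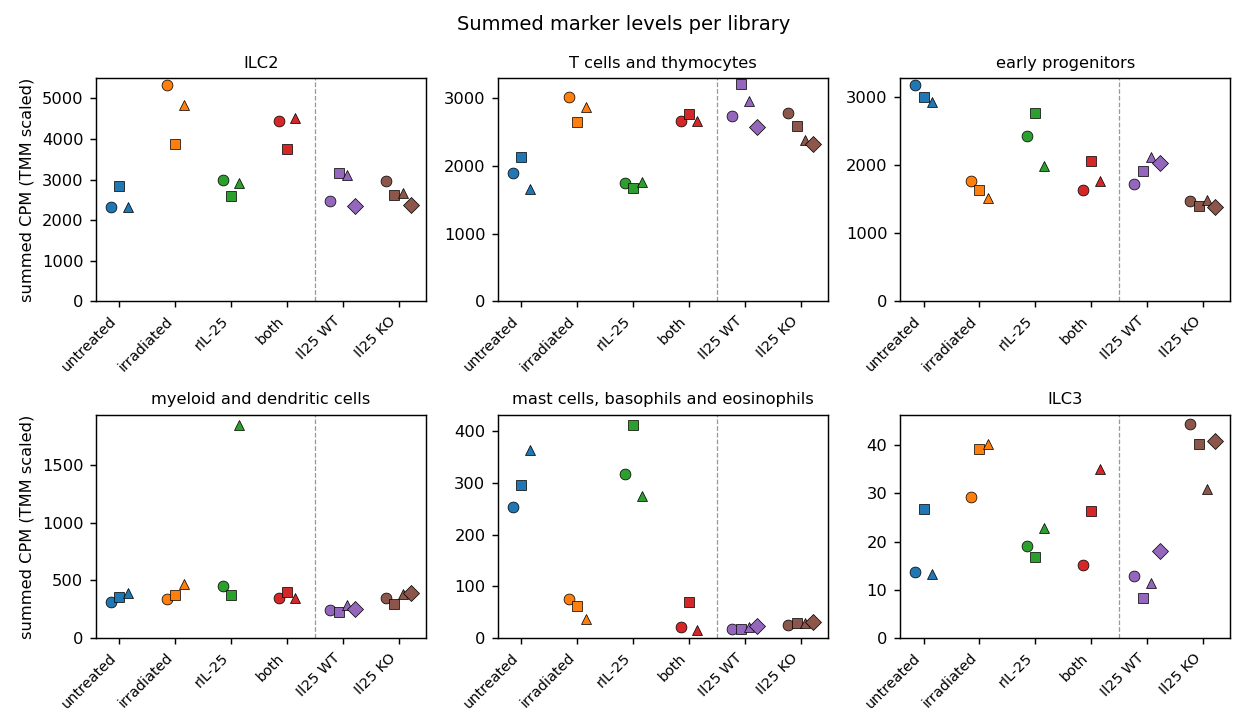
Summed level of marker genes per library, in CPM after TMM scaling on linear axes, for 6 cell types, with the treatment experiment left and the knockout experiment right of the dashed line. Circles, squares, triangles and diamonds are replicates 1 to 4. In the treatment experiment, early progenitor sums are lower in all treated groups than in untreated mice. Mast cell sums are lower in the irradiated groups only, and rIL-25 replicate 3 alone has a high myeloid sum.

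The second question was how the same transcripts differed between irradiated Il25 KO and Il25 WT mice. Il25 itself had 3, 7, 17 and 10 counts in the Il25 WT libraries and 0 in each Il25 KO library, matching the labels. Of the 9 members, 8 passed the filter and 7 of these rose in Il25 KO (edgeR, adjusted p under 0.05), against 1.57% of the 8812 genes tested. Il13, Areg, Calca, Furin, Ccl1, Csf2 and Il5 were higher in all 4 Il25 KO libraries than in any Il25 WT library, a separation seen for 4.48% of all genes in the table. The members were 2.2-fold to 7.45-fold higher, with a median log2 fold change of 1.66 beside -0.00463 over all genes tested.

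**Figure D4:**
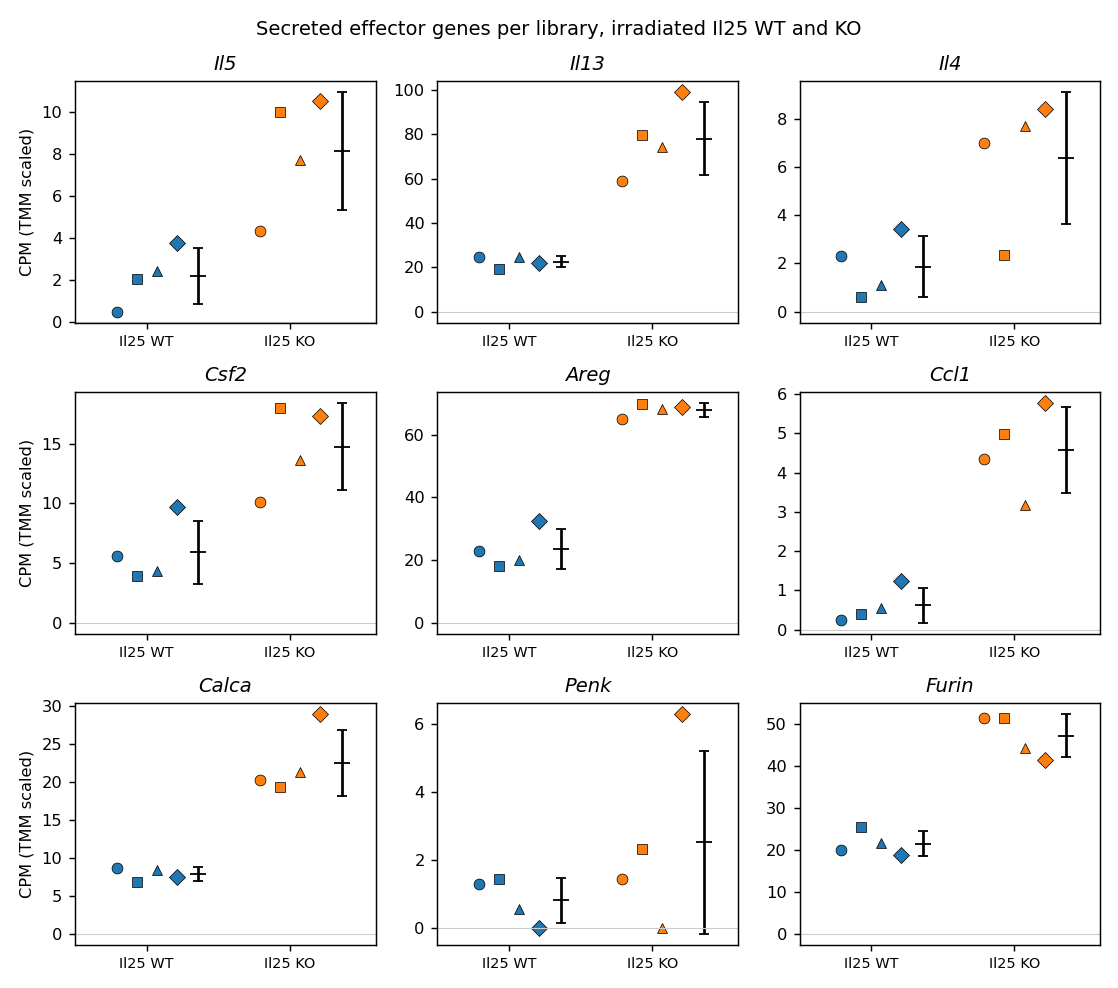
Level of each secreted effector gene in every library of the knockout experiment, in CPM after TMM scaling on linear axes. Circles, squares, triangles and diamonds are replicates 1 to 4, bars give the mean ± SD (n = 4), and all mice were irradiated. The Il25 KO and Il25 WT libraries do not overlap for 7 of the 9 members, and they overlap for Il4 and Penk.

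Among the type 2 cytokines, Il13 had 96, 94, 91 and 70 counts in Il25 WT and 245, 239, 164 and 189 in Il25 KO. The lowest Il25 KO level, 59.1 CPM, was above the highest Il25 WT level, 24.7 CPM. Il13 rose from 22.6 ± 2.6 to 78.1 ± 16.5 CPM (n = 4 each), a log2 fold change of 1.78 ± 0.16 (edgeR adjusted p = 3.45e-05). Il5 had 2, 10, 9 and 12 counts in Il25 WT and 18, 30, 17 and 20 in Il25 KO, and rose from 2.19 ± 1.33 to 8.13 ± 2.8 CPM (log2 fold change 1.87 ± 0.41, edgeR adjusted p = 0.0235). The Il5 call was lost in 6 of 8 fits that left out 1 library, all but those without Il25 WT replicate 4 or Il25 KO replicate 1 (adjusted p up to 0.0851).

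Il4 was the member that passed the filter without a call. It had 9, 3, 4 and 11 counts in Il25 WT and 29, 7, 17 and 16 in Il25 KO, at 1.86 ± 1.27 and 6.36 ± 2.74 CPM, and Il25 KO replicate 2 lay within the Il25 WT range. Its log2 fold change was 1.80 ± 0.46 (edgeR adjusted p = 0.0628). The difference was called without Il25 KO replicate 2 (2.09, adjusted p = 0.0133), without Il25 WT replicate 4 (2.23, adjusted p = 0.0218), by DESeq2 (adjusted p = 0.0298) and in the authors' deposited table (adjusted p = 0.0296). The 3′ end of the GENCODE model of Il4 overlaps Kif3a on the opposite strand, and the strand setting of the counting is not given in the sources used here. Kif3a had 18 counts in Il25 WT and 9 in Il25 KO over all libraries.

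Areg, the amphiregulin gene, was the member with the most even levels in Il25 KO. It had 90, 88, 74 and 104 counts in Il25 WT and 269, 210, 150 and 131 in Il25 KO. Levels in Il25 KO lay between 64.9 and 69.9 CPM, against 18 to 32.5 CPM in Il25 WT. Areg rose from 23.4 ± 6.4 to 67.9 ± 2.15 CPM (log2 fold change 1.55 ± 0.16, edgeR adjusted p = 0.00011). Areg had 0 counts in every irradiated library of the treatment experiment, whose table was scaled separately and whose mice were female, and no comparison was made between the experiments.

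Csf2 had 22, 19, 16 and 31 counts in Il25 WT and 42, 54, 30 and 33 in Il25 KO. Its ranges were close, with 9.68 CPM in the highest Il25 WT and 10.1 CPM in the lowest Il25 KO library. Csf2 rose from 5.89 ± 2.64 to 14.8 ± 3.63 CPM (log2 fold change 1.34 ± 0.29, edgeR adjusted p = 0.0205), and the call was lost in 6 of 8 fits that left out 1 library, all but those without Il25 WT replicate 4 or Il25 KO replicate 1 (adjusted p up to 0.0837).

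Ccl1 had the largest fold of the members tested. It had 1, 2, 2 and 4 counts in Il25 WT and 18, 15, 7 and 11 in Il25 KO, at 0.614 ± 0.439 and 4.57 ± 1.1 CPM. Ccl1 rose by 2.90 ± 0.43 on the log2 scale (edgeR adjusted p = 0.00122). Its count ratio was 7.89, with an exact 95% interval of 3.85 to 18.2, so its size is less well fixed than that of Il13, for which the interval of the ratio was 2.93 to 3.77.

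Of the neuropeptide genes, Calca rose and Penk was not called. Calca had 34, 33, 31 and 24 counts in Il25 WT and 84, 58, 47 and 55 in Il25 KO, and its level went from 7.84 ± 0.891 to 22.4 ± 4.35 CPM (log2 fold change 1.5 ± 0.19, edgeR adjusted p = 0.000316). Penk had 5, 7, 2 and 0 counts in Il25 WT and 6, 7, 0 and 12 in Il25 KO, with overlapping ranges. In the fit without a filter, which called 1.53% of genes higher, its adjusted p was 0.508, and its count ratio of 2.49 had an exact 95% interval of 1.24 to 5.18 that covers counting error only.

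Furin had 78, 125, 80 and 60 counts in Il25 WT and 214, 155, 98 and 79 in Il25 KO. The Il25 KO libraries lay between 41.4 and 51.6 CPM and the Il25 WT libraries between 18.7 and 25.6 CPM. Furin rose from 21.5 ± 2.98 to 47.3 ± 5.15 CPM (log2 fold change 1.14 ± 0.14, edgeR adjusted p = 0.000316). Il13, Areg, Calca and Furin were called under all 13 alternatives in this experiment. Ccl1 was called under the 11 in which it was tested.

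ILC2 markers other than Areg (12 measured of 15) summed to 2359 to 3165 CPM in Il25 WT and 2366 to 2962 CPM in Il25 KO. Single ILC2 markers did differ. With Areg included, 5 of 13 tested were called higher and 0 lower (edgeR), against 1.57% and 0.204% of all genes. Their median log2 fold change was 0.69, and 6 had ranges apart with Il25 KO higher, against 4.48% of genes. Icos and Id2, given below, are among the called markers. Levels of Gata3 (53.6 ± 7.84 and 49.4 ± 6.01 CPM) and of Il17rb (74.7 ± 5.66 and 75 ± 8.79 CPM) were not called (edgeR adjusted p = 0.812 and 0.994). Mast cell, basophil and eosinophil markers (4 of 15) summed to 17.4 to 22.8 CPM in Il25 WT and 25.1 to 31.5 in Il25 KO. Myeloid and dendritic cell markers (8 of 12) summed to 223 to 285 and 299 to 394 CPM, ILC3 markers (6 of 7) to 8.39 to 18.1 and 30.9 to 44.4 CPM, and early progenitor markers (6 of 10) to 1727 to 2117 and 1389 to 1483 CPM. No marker of these lists was at 0 in either group. These 4 sums did not overlap between the genotypes, and their part in the rise of the members was not tested.

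Because Il4, Il13, Il5 and Csf2 are neighbours, the genes around them were compared. The window from 100 kb before Il4 to 100 kb after Csf2 holds 32 genes in RefSeq, of which 15 code for protein. Besides the 4 members, 4 coding genes of this window are in the treatment table and 7 in the knockout table. Rad50, a DNA repair gene that lies between Il13 and Il5, was at 64.3 ± 6.69 CPM in untreated and 54.9 ± 9.18 CPM in doubly treated mice (edgeR adjusted p = 0.644), and at 27 ± 6.14 and 22.8 ± 1.96 CPM in Il25 WT and Il25 KO (adjusted p = 0.608). Irf1, an interferon regulatory factor gene on the far side of Il5, was not called either (adjusted p = 0.289 and 0.723).

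Pdlim4, which encodes a cytoskeletal adaptor and lies between Il5 and Csf2, differed from the members in direction between the experiments. It rose after irradiation alone, from 2.33 ± 2.28 to 73.4 ± 24.6 CPM (log2 fold change 4.92 ± 0.63, edgeR adjusted p = 7.32e-05). After both treatments it was at 120 ± 59.3 CPM (5.63 ± 0.59, adjusted p = 1.11e-05), and after rIL-25 alone at 1.97 ± 1.76 CPM. In Il25 KO it fell by 1.30 ± 0.26 on the log2 scale, from 31.4 ± 6.48 to 12.3 ± 6.01 CPM (edgeR adjusted p = 0.0126), whereas Il13, Il5 and Csf2 rose in the same libraries. Septin8, a cytoskeletal septin gene before Il4, was at 2.49 ± 0.893 CPM in Il25 WT and 5.56 ± 0.856 CPM in Il25 KO (log2 fold change 1.16 ± 0.31, edgeR adjusted p = 0.079) and was not called. Il13, Il5 and Csf2 thus rose in Il25 KO, Il4 and its other tested neighbours were not called, and Pdlim4 fell.

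**Figure D5:**
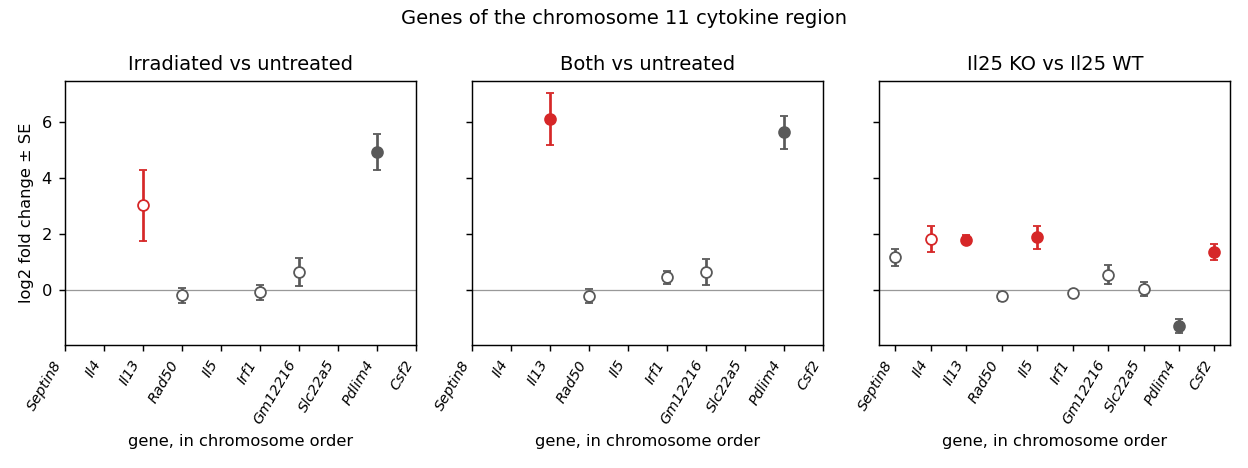
Fitted log2 fold change ± SE from edgeR for genes of the chromosome 11 cytokine region, in chromosome order and not to distance, in 3 comparisons. Red symbols are members, grey symbols are other genes, filled symbols have an adjusted p under 0.05, and genes that did not pass the filter have no symbol. Pdlim4 is higher in both treatment comparisons and lower in Il25 KO, while Il13 is higher in all 3 panels, without a call after irradiation alone.

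The members varied together across libraries. Over the 8 libraries of the knockout experiment, Pearson's r between log2 levels was 0.989 for Il13 and Calca, 0.945 for Il13 and Areg, 0.969 for Areg and Ccl1, and 0.581 for Il4 and Il5, the lowest of the 28 pairs. These values hold the difference between genotypes that all of these genes share. Over the 12 treatment libraries r was 0.89 for Il13 and Calca, 0.849 for Il13 and Furin and 0.842 for Calca and Furin, and there the difference between groups is included too.

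The genes most like each member are given by the same measure, as a description. For Il13 in the treatment experiment they were Stab2 (r = 0.958), the ILC2 marker Klrg1 (0.945) and Arg1 (0.927), an arginine-degrading enzyme gene of ILC2. For Calca they were the protease gene Adam8 (0.962), the leukotriene B4 receptor gene Ltb4r1 (0.95) and Arg1 (0.922), and for Furin they were Hnrnpu (0.938), Pea15a (0.937) and Serpina3g (0.931). In the knockout experiment the genes most like Il13 were Calca, Gadd45b (0.981) and Id2 (0.979), and those most like Areg were Serpina3g (0.993), Ell2 (0.989) and Pxdc1 (0.989). Ccl1 was most like Ltb4r1 (0.98), Icos (0.971) and Ell2 (0.971).

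Genes of the pathways around the members were read from lists chosen with earlier results known. Of 34 other cytokine and chemokine genes, 12 were tested in the treatment experiment and 5 rose after both treatments, 0 fell, and 1 rose after irradiation alone (edgeR, adjusted p under 0.05). Over all genes tested, 1.8% were called lower after irradiation, 4.7% after both treatments and 0.204% in Il25 KO. Lta, which encodes lymphotoxin alpha, rose from 2.65 ± 1.06 CPM in untreated mice to 16.7 ± 1.81 after irradiation and 37.9 ± 5.47 after both. Ltb rose from 158 ± 48.7 to 556 ± 23.5 CPM, and the chemokine gene Cxcl10 from 1.27 ± 1.22 to 29.4 ± 11.5 CPM, after both treatments. In Il25 KO 6 of 19 tested rose and 0 fell, among them Cxcl10 (2.58-fold, adjusted p = 0.00175), Ltb (1.78-fold, 0.00222) and Il17a, a type 3 cytokine gene (5.54-fold, 0.00251). The median log2 fold change of these 19 was 0.40, beside -0.00463 over all genes.

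Of 24 alarmin and activating receptor genes, 15 were tested in the treatment experiment, and 7 rose after both treatments against untreated mice while 0 fell. Tnfrsf18, which encodes the costimulatory receptor GITR, rose from 37.1 ± 3.33 to 164 ± 26.1 CPM. Il2rb and Ramp3, at 0 counts in every untreated library, were at 34.6 ± 15.5 and 18.9 ± 11.7 CPM. Ramp3 is a partner of the calcitonin receptor family. After both treatments against rIL-25 alone 6 of the 15 rose and 2 fell, among them Calcrl, given below. In Il25 KO 7 of 17 receptor genes rose and 0 fell. The costimulatory receptor gene Icos rose from 3.16 ± 1.49 to 19.4 ± 1.36 CPM (6.25-fold, edgeR adjusted p = 4.2e-05), Ramp3 from 62 ± 14.6 to 147 ± 12.2 CPM and Tnfrsf18 from 98.7 ± 8.5 to 181 ± 12.6 CPM.

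Receptors that detect the members' products gave few calls. Of 6 tested in Il25 KO, 0 were called in either direction by edgeR (1 at an unadjusted p under 0.05, and 0 by DESeq2), with a median log2 fold change of 0.02. After both treatments against untreated mice 1 of 4 tested rose, Il2rg, which encodes the common gamma chain (1.51-fold, edgeR adjusted p = 0.0423), and 0 fell. Against rIL-25 alone 1 of these 4 rose and 1 fell, Calcrl of the calcitonin receptor family (0.305-fold, edgeR adjusted p = 0.0197). Ccr8, the receptor gene for Ccl1, was at 0 in untreated libraries and did not pass the filter.

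Of 24 transcription regulators linked to type 2 cytokines, 18 were tested in the treatment experiment, and 4 rose and 0 fell after both treatments. Id2, which innate lymphoid cells need, rose 13.3-fold (adjusted p = 2.26e-05), Tcf7 3.54-fold (0.00109) and Batf, an AP-1 factor gene, 2.28-fold (0.0133). In Il25 KO 2 of 21 rose and 0 fell, Id2 from 56.7 ± 5.95 to 121 ± 23.8 CPM and Bhlhe40 from 24.6 ± 5.26 to 44.5 ± 2.18 CPM, while Gata3 was not called. Bcl11b, a regulator of T cell and ILC2 identity, fell after irradiation alone (0.56-fold, adjusted p = 0.0186) and was the only tested regulator with a called interaction (log2 1.06, adjusted p = 0.0417).

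Factors of messenger decay that act on AU-rich transcripts moved both ways. After both treatments Zfp36l1 (4.28-fold, adjusted p = 0.000983) and Khsrp (2.46-fold, 0.0424) rose and Cnot6 fell (0.46-fold, 0.00791), of 8 tested. In Il25 KO 1 of 9 rose, Zc3h12a, which encodes the ribonuclease Regnase-1 (1.48-fold, adjusted p = 0.0376), and 0 fell. Of other processing enzymes, those that cut propeptides or shed membrane-bound precursors, 2 of 7 rose after both treatments and 0 fell, namely Adam19 and Adam8 (3.96-fold, adjusted p = 0.0387). Adam19 had 0 counts in untreated libraries and was at 19.2 ± 7.98 CPM. In Il25 KO 0 of 8 were called by edgeR (1 at an unadjusted p under 0.05, and 0 by DESeq2), while Furin rose 2.2-fold.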

How the data were processed

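MARS-seq libraries of sorted thymic ILC2 were used. Per the submitters' processing notes the tools were STAR 2.5.2b, HTSeq, cutadapt, bcl2fastq and DESeq2, on the build mm10, with settings not given in the sources used here. The authors deposited 1 table per experiment, with a raw count per gene and library. The knockout counts are of molecular identifiers per the labels, and for the treatment table the sources used here do not say whether reads or identifiers were counted. The authors' deposited log2 fold changes and p-values come from their own comparisons and were used only where named.

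Tests were run with edgeR 4.0.16 under R 4.3.3 (filterByExpr with a minimum count of 10, TMM scaling, quasi-likelihood F-test), with 12 treatment libraries in 1 fit and 8 knockout libraries in another. The filter left 7482 and 8812 genes. P-values were adjusted by Benjamini and Hochberg's method across every gene in the fit. CPM are counts per 1000000 of the TMM-scaled library size. The SE was taken as the log2 fold change over the root of the F statistic. Count ratios with an exact 95% interval are per scaled library total. Where a group had 0 counts, the fold given as "at least" was computed with 3 counts for that group as a whole. It takes the counts of the other group as they are, without their counting error or spread. The procedure was tested on simulated data.

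All members are named. From each list the text names up to 3 called genes per comparison with the smallest p, plus Gata3, Il17rb, Il1rl1, Klrg1 and Arg1, and for each member the 3 genes with the highest Pearson's r. Pdlim4, Rad50, Irf1, Septin8, Kif3a, Ccr8 and Hoxa9 were named after their values were seen. The members and lists were chosen with earlier results of these data known. Alternatives were DESeq2's size factors, no filter, a minimum count of 30, DESeq2 1.42.0, the replicate number as a block, only the groups compared, and each library left out. The fit without a filter for the 6 low members, the rule for ranges apart and the window around the chromosome 11 genes were chosen after seeing the data.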

Additional observations from a re-analysis of the deposited data

How the results depend on the processing

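The number of members called depended on the filter and the test in 5 of the 7 comparisons. After irradiation alone it was 0, and 1 with no filter (Ccl1), 1 by DESeq2 and 1 with the replicate number as a block (Il13, adjusted p = 0.0164). After both treatments against untreated mice it was 3, and 9 with no filter, 4 by DESeq2, 2 with a minimum count of 30 and 2 with only the groups compared. Against irradiation it was 1, and 3 with no filter and 0 by DESeq2. Against rIL-25 it was 3, and 9 with no filter, 2 with a minimum count of 30 and 2 by DESeq2. In Il25 KO it was 7, and 5 with a minimum count of 30, 8 by DESeq2 and 8 with the replicate block. Of all genes, 188 were called between both treatments and irradiation, and 125 when only the groups compared were fitted.

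Leaving out 1 library at a time gave 0 to 1 members called after irradiation, 0 after rIL-25, 2 to 4 after both treatments, 0 to 1 and 0 to 4 for both treatments against irradiation and against rIL-25, 0 for the interaction and 5 to 8 in Il25 KO. The counts of all genes called ranged from 86 to 370, 0 to 3, 271 to 896, 42 to 358, 460 to 1318, 29 to 347 and 105 to 174 in the same order. The lowest counts of members after both treatments were those without doubly treated replicate 3.

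The replicate numbers did not pair the libraries: the deviations of same-numbered libraries from their group means had a correlation over 0.1 in 4 of 18 pairs in the treatment and 1 of 4 in the knockout experiment, with a range of -0.197 to 0.375. With the replicate block Il4 was called in Il25 KO (adjusted p = 0.0146), and its call after both treatments in the fit without a filter was lost (adjusted p = 0.0665). No called difference of a member changed direction. Differences without a call did so in 25 cases, 24 of them with 1 library left out. Over those fits the log2 fold change after rIL-25 alone ranged from -3.93 to 2.84 for Calca, -1.95 to 2.41 for Areg and -1.95 to 1.65 for Penk. For both treatments against irradiation it ranged from -0.19 to 0.39 for Il4 (-0.067 with the replicate block) and -0.025 to 0.44 for Ccl1. The interaction ranged from -1.07 to 1.64 for Il13, -1.13 to 5.65 for Calca and -0.45 to 0.43 for Furin. Of the member results that passed the filter, 359 kept direction and side of the threshold, 28 lost a call, 6 gained one and 16 changed sign. In the fit without a filter these were 361, 49, 0 and 9. The cause was not tested. Before scaling, 3 counts stood for 2.05 to 6.06 CPM in the treatment libraries, which limits Il4, Il5, Csf2, Areg, Penk and Ccl1.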
